A study of Mus musculus with 6 samples.

Results

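Glucocorticoids act in a cell only as far as enzymes, receptors and chaperones let them. Hsd11b2 oxidises active corticosterone to an inert form, Hsd11b1 runs the reaction the other way, and the receptors encoded by Nr3c1 and Nr3c2 carry the hormone's signal to DNA. Tsc22d3, Fkbp5, Sgk1 and Per1 are textbook transcriptional targets of the glucocorticoid receptor. In the ovary, theca cells wrap the growing follicle, make androgens and are exposed to circulating glucocorticoids. The 8 genes were followed in adult theca-lineage cells of different origin, on all probe sets whose single gene symbol in the platform annotation is 1 of these 8. That rule took 8 of the 18193 genes with a named probe set, and 18 of the 45101 probe sets on the array: 6 for Nr3c1, 4 for Tsc22d3, 3 for Fkbp5 and 1 for each of the other 5 genes. The 8 genes were proposed with the results of this same comparison known, so they were in effect selected on these signals, Hsd11b2 for its difference between the groups. Their values are therefore given as a description, with no test of their own.

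The cells came from ovaries of female Gli1-CreERT2; Rosa-LSL-tdTomato mice on 129S6/SvEvTac at 2 months of age, and both groups carry these alleles. Mesonephros-derived cells (3 arrays) were marked before birth, with tamoxifen doses on E12.5 plus E14.5, then a final dose on E16.5. Ovary-derived cells (3 arrays) were marked by tamoxifen given through the nursing dam on postnatal days 1 to 3. The Gli1 driver marks any cell that expresses this hedgehog effector when tamoxifen is present, and its descendants, so the time of marking and the origin named in the labels cannot be told apart. Cells were dissociated with enzymes for 20 min and sorted by flow cytometry, and 4 µl of total RNA was amplified from each sample because concentrations varied.

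The arrays differed in ways that bear on the values below. Log2 signals of all probe sets without controls correlated at 0.844 to 0.896 among mesonephros-derived arrays, at 0.963 to 0.973 among ovary-derived arrays and at 0.871 to 0.950 between the groups. The median ratio of 12 poly-A spike probe sets to the ovary-derived mean was 14.9, 14.4 and 2.24 on mesonephros-derived arrays 1, 2 and 3, against 0.613, 0.770 and 1.60 on ovary-derived arrays 1, 2 and 3. The ratio for hybridisation spikes was 3.42, 2.78 and 1.35 on the mesonephros-derived arrays, against 0.818, 0.967 and 1.24 on the ovary-derived ones. The 3′ to 5′ signal ratio of Gapdh, a sign of RNA quality and amplification, was 5.29, 3.48 and 2.63 on mesonephros-derived arrays, against 1.94, 2.39 and 2.86 on ovary-derived arrays. That of Actb was 0.8869, 0.9295 and 0.8944 on mesonephros-derived arrays, against 0.9580, 1.008 and 0.9196 on ovary-derived arrays. The Actb ratio was thus not raised on mesonephros-derived arrays, and these controls did not go alike. The part of these array differences in the member values was not tested beyond the spike covariate given below. Of the theca and steroidogenic markers, all 5 with a named probe set were above the floor, a signal of 99.4 under which a probe set's mean was not tested. Of these, 4 were higher and 1 lower, with a summed signal of 24455 to 42405 in mesonephros-derived cells, against 15011 to 22747 in ovary-derived cells. They ranged from Nr5a1, at −0.43 log2 units, to Cyp17a1, at 2.67. Cyp17a1 read 3346, 10577 and 8689 in mesonephros-derived cells, against 1413, 1304 and 619 in ovary-derived cells. Of the granulosa markers 2 of 6 were above the floor on average, Foxl2 and Inha. Foxl2 averaged 3991 in mesonephros-derived cells, against 4520 for ovary-derived cells, and Inha averaged 958 in mesonephros-derived cells, against 752 for ovary-derived cells. The granulosa list summed to 4532 to 6316 in mesonephros-derived cells, against 4736 to 6299 in ovary-derived cells, with Foxl2 the largest part. Of the dimmer ones, Amh read 511, 234 and 33.4 in mesonephros-derived cells, against 20.7, 28.1 and 34.7 in ovary-derived cells. Nr5a2 went the other way, at 16.2, 66.3 and 15.6 in mesonephros-derived cells, against 244, 185 and 95.3 in ovary-derived cells. Of 6 stromal fibroblast markers, all above the floor, 5 were higher and 1 lower, with a summed signal of 71180 to 108866 in mesonephros-derived cells, against 51145 to 60720 in ovary-derived cells. Col1a2 and Col1a1 had the highest mean signals of these, and only they did not overlap between the groups, at 0.84 and 1.00. Their differences were 0.005 and 0.46 after quantile normalization, and −0.08 and 0.20 with the spike covariate. All 7 epithelial, all 4 oocyte and both luteal markers lay below the floor on average. The luteal Akr1c18 read 117, 319 and 73.8 in mesonephros-derived cells, against 4.27, 25.3 and 7.38 in ovary-derived cells. Ptgfr, the other, read 109, 258 and 89.8 in mesonephros-derived cells, against 58.0, 70.0 and 60.1 in ovary-derived cells. For each, 2 mesonephros-derived and 0 ovary-derived arrays were above the floor.

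The sequence that ties the response genes to their receptor could be seen directly in 1 promoter. RefSeq promoter windows (GRCm38.p6, 250 bases before to 50 bases after a start site) were used for 6 of the 8 genes, 14 windows in all. The glucocorticoid response element was searched as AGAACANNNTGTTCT, a palindrome that reads the same on both strands. It was complete in 1 window, of Sgk1 on the plus strand at chr10:21993640-21993939, where it began 189 bases before the start site. Among all 32851 windows of that length 3 held it, or 0.00913%. The window is shown because it holds the complete element, which capitals mark.
Sgk1 promoter: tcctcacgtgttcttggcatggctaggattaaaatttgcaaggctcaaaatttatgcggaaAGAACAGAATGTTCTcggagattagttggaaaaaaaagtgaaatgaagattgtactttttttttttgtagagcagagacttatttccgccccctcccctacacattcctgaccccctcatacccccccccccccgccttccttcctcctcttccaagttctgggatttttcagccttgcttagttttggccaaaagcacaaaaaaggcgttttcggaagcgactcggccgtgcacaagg
Another Sgk1 window differed from the element at 2 of its 12 fixed letters, at chr10:21985911-21985945 on the plus strand; 1.84% of all windows came as near or nearer. Capitals mark the letters that match.
Sgk1 upstream window: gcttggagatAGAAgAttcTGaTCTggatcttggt
The 6-letter AGAACA, taken on either strand, was in 4 of the 14 member windows (3 of Sgk1 and 1 of Tsc22d3), against 19.0% of all windows. Per1 and Fkbp5 each had a window with CACGTG, the E-box through which the circadian clock acts on Per1; 7.15% of all windows hold it. The Sgk1 window printed first also holds it, near its 5′ end. Capitals mark the E-box at chr11:69098768-69098803 (plus strand) and chr17:28486298-28486333 (minus strand).
Per1: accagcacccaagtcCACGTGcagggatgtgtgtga
Fkbp5: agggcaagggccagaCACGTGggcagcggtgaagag
These are matches of letters and say nothing about binding in these cells.

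Hsd11b2, the inactivating enzyme, was the member with the widest separation between the groups. Its probe set (1416761_at) had signals of 707, 640 and 655 in mesonephros-derived replicates 1, 2 and 3, against 2798, 4037 and 1528 in ovary-derived replicates 1, 2 and 3. Every mesonephros-derived array lay below every ovary-derived one, and the mesonephros-derived arrays lay close together while the ovary-derived ones were spread. Mesonephros-derived cells averaged 667 ± 35.5, against 2788 ± 1255 for ovary-derived cells (SD, n = 3 each). On the scale log2(signal + 16) the difference, mesonephros-derived minus ovary-derived, was −1.93 ± 0.33 (SE from limma), a level 3.81-fold lower in mesonephros-derived cells. Of the 27022 probe sets tested, 0.414% had a difference as low or lower. Since Hsd11b2 was chosen for this difference, that share is a description and no measure of rarity. In bulk sorted cells, fewer cells that express a gene and less RNA per cell cannot be told apart.

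The spread of Hsd11b2 ran against that of most probe sets. The SD on the log2 scale was 0.07 among mesonephros-derived and 0.70 among ovary-derived arrays. Over all probe sets tested the SD was larger among mesonephros-derived arrays for 82.5%, with medians of 0.52 on mesonephros-derived and 0.23 on ovary-derived arrays. Of the 15 tested member probe sets, 12 had the larger SD in mesonephros-derived cells, and the 3 that did not were those of Hsd11b2, Per1 and 1 probe set of Tsc22d3. Without ovary-derived replicate 2, the brightest array, the Hsd11b2 difference was −1.61, and without ovary-derived replicate 3, the dimmest of that group, it was −2.31.

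Endothelial markers followed Hsd11b2 on some arrays and not on others. Relative to the ovary-derived mean, Hsd11b2 stood at 0.11, 0.64 and −0.75 log2 units on ovary-derived arrays 1, 2 and 3, and the mean of 8 endothelial markers stood at 0.29, 0.20 and −0.49 there. On mesonephros-derived arrays 1, 2 and 3 Hsd11b2 stood at −1.85, −1.99 and −1.95, and the endothelial mean at −1.94, −0.21 and −1.28. On mesonephros-derived array 2 the endothelial markers went both ways: Tek and Eng, at 1010 and 2645, were above every ovary-derived array, while Robo4, Sox18 and Emcn, at 96.6, 922 and 859, were below every one. Of the 8 tested endothelial markers 6 were lower and 2 higher on average, and the summed signal of all 9 was 3996 to 8164 in mesonephros-derived cells, against 6233 to 9455 in ovary-derived cells. Of 7 macrophage markers 5 were tested, and all 5 were lower on the log2 scale, with a median difference of −0.65. The arrays did not go alike. Relative to the ovary-derived mean, the mean of these 5 stood at −3.03, 0.38 and −0.71 log2 units on mesonephros-derived arrays 1, 2 and 3. The summed signal of all 7 was 461 to 5408 in mesonephros-derived cells, against 3287 to 4655 in ovary-derived cells. On mesonephros-derived array 1 markers of each cell type differed widely among themselves. There Kdr read 9.91 and Emcn 1973, which was above every ovary-derived array, and Csf1r read 2.81 where Cd68 read 260. Csf1r differed by −2.88 on that probe set and by −1.75 and −0.03 on its 2 other tested ones. The part of these cell types in the Hsd11b2 difference was not tested.

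**Figure D1:**
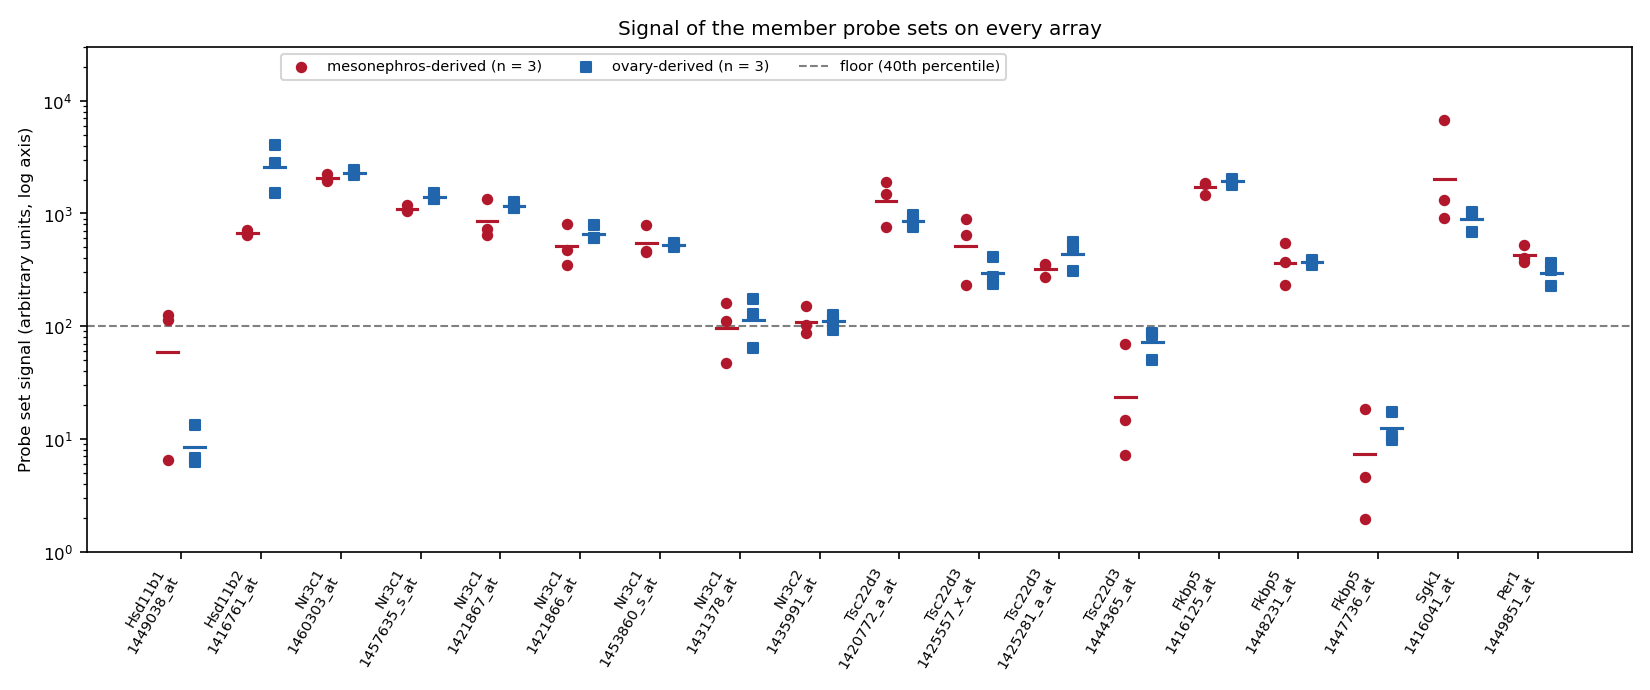
Signal of all 18 probe sets of the 8 genes on every array (log axis, arbitrary units), mesonephros-derived arrays as red circles and ovary-derived arrays as blue squares. Short lines are group means taken on the log2(signal + 16) scale and the dashed line is the floor of 99.4. Hsd11b2 is at 640 to 707 in mesonephros-derived and 1528 to 4037 in ovary-derived cells, and 1 mesonephros-derived array stands alone for Sgk1 at 6710.

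Hsd11b1, the activating counterpart, was at the edge of detection. Its probe set (1449038_at) read 6.48, 114 and 127 in mesonephros-derived replicates 1, 2 and 3, against 6.19, 13.2 and 6.78 in ovary-derived replicates 1, 2 and 3. Replicates 2 and 3 of the mesonephros-derived cells were just above the floor and replicate 1 fell within the ovary-derived range, so the groups overlapped. The mean was below the floor, and the gene was not tested. H6pd, which supplies the cofactor for the activating direction, read 1342, 1598 and 1682 in mesonephros-derived and 1412, 1280 and 1287 in ovary-derived cells, a difference of 0.21 ± 0.20 (SE). No fold is given for Hsd11b1, since its mesonephros-derived mean lies below the floor as well. Of the 9 genes of steroid metabolism and supply with a named probe set, only H6pd and Abcb1a, a pump that exports steroids, were above the floor. The adrenal enzymes Cyp11b1, Cyp11b2 and Cyp21a1 were not, on average.

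Nr3c1, the glucocorticoid receptor gene, had small differences between the groups on each of its probe sets. Its brightest probe set (1460303_at) read 2223, 2013 and 1959 in mesonephros-derived replicates, against 2303, 2422 and 2203 in ovary-derived replicates. The groups touched, since mesonephros-derived replicate 1 lay above ovary-derived replicate 3, and the difference was −0.16 ± 0.18 (SE). The probe set 1457635_s_at had 1196, 1045 and 1069 in mesonephros-derived cells, against 1509, 1345 and 1335 in ovary-derived cells. These did not overlap, with a difference of −0.34 ± 0.21. All 6 Nr3c1 probe sets were tested: 5 had a difference below 0, from −0.42 to −0.16, and 1453860_s_at had 0.05. The median of all probe sets tested was itself below 0, at −0.11, so most of the Nr3c1 values lie close to the centre of the array. Nr3c2, the mineralocorticoid receptor, which binds both hormone classes and which Hsd11b2 shields from glucocorticoids in the kidney, was near the floor. It read 101, 150 and 86.3 in mesonephros-derived cells, against 115, 93 and 126 in ovary-derived cells, a difference of −0.01 ± 0.43, with the ovary-derived range inside the mesonephros-derived one.

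**Figure D2:**
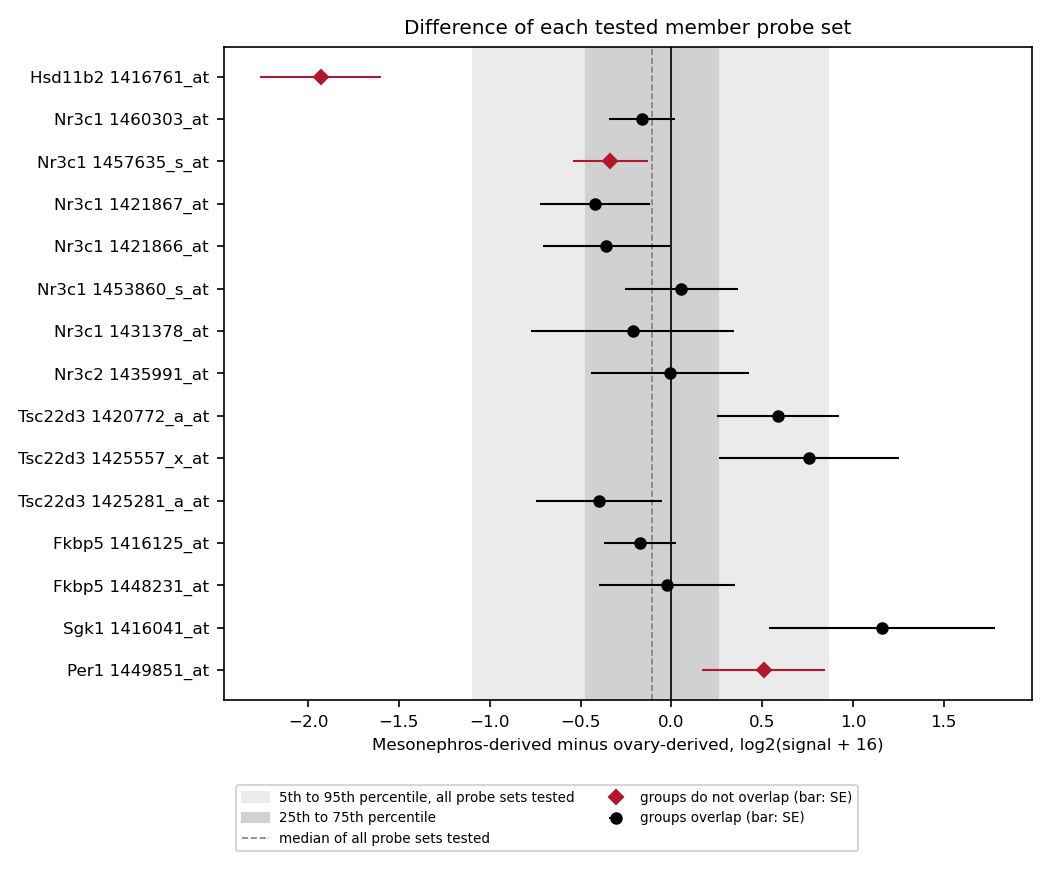
Difference of the 15 tested probe sets, mesonephros-derived minus ovary-derived on the log2(signal + 16) scale, with SE bars from limma. Grey bands hold the middle of all 27022 probe sets tested. Hsd11b2 at −1.93 and Sgk1 at 1.16 lie outside the wider band, which runs from −1.09 to 0.86, and the other 13 lie inside it.

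The 4 response genes did not go one way. Sgk1, a kinase that sustains sodium transport and cell survival, read 1321, 6710 and 920 in mesonephros-derived replicates 1, 2 and 3, against 1022, 1013 and 687 in ovary-derived replicates. Mesonephros-derived replicate 2 stood 7.29-fold above replicate 3 of its own group, and replicate 3 lay within the ovary-derived range. The difference was 1.16 ± 0.62 (SE) with all arrays and 0.30 without replicate 2, so it rested on that array. Adjusted for the signal of the poly-A spikes, it turned to −0.13. This is the gene whose promoter holds the complete element printed above.

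Per1, a clock gene that glucocorticoids also induce, read 523, 373 and 406 in mesonephros-derived replicates, against 229, 312 and 365 in ovary-derived replicates. The groups did not overlap, but the gap was narrow, 373 against 365. The difference was 0.51 ± 0.34, and 0.33 to 0.65 on leaving out each array in turn. Fkbp5, a co-chaperone that lowers the receptor's affinity for hormone, read 1463, 1861 and 1824 in mesonephros-derived cells, against 2030, 1963 and 1789 in ovary-derived cells on its brightest probe set (1416125_at). The groups overlapped, with a difference of −0.17 ± 0.20, and a second tested probe set (1448231_at) had −0.03 ± 0.37. The remaining Fkbp5 probe set, at 1.93 to 18.3 in mesonephros-derived cells and 9.8 to 17.5 in ovary-derived cells, was below the floor.

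Tsc22d3, the glucocorticoid-induced leucine zipper, had probe sets on both sides of 0. Its brightest (1420772_a_at) read 1899, 1479 and 761 in mesonephros-derived replicates 1, 2 and 3, against 853, 964 and 758 in ovary-derived replicates. Mesonephros-derived replicates 1 and 2 were high and replicate 3 was within the ovary-derived range. The difference was 0.59 ± 0.34, and a probe set with the same order of arrays (1425557_x_at) had 0.76 ± 0.49. Another probe set (1425281_a_at) read 352, 356 and 272 in mesonephros-derived cells, against 476, 553 and 308 in ovary-derived cells, a difference of −0.40 ± 0.35. The remaining one was below the floor on all 6 arrays. The first pair of probe sets turned to −0.39 and −0.63 with the spike covariate, while 1425281_a_at kept its sign in the 18 settings that held it. Replicates 1 and 2, where Tsc22d3 was high, are also the arrays with poly-A spikes at 14.9 and 14.4 times the ovary-derived mean.

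Read together, the members stood as follows. Of 18 probe sets 15 were above the floor, from 7 of the 8 genes. At an adjusted p of 0.05 in limma 0 of the 15 were called, where 0.0148% of all probe sets tested were. At an unadjusted p of 0.05 it was 1 of 15, Hsd11b2, where 12.9% of all probe sets were past it. Over the 19 alternative settings 0 to 4 were past the unadjusted p. Hsd11b2 was past it in 18 of them and not with the spike covariate, where its difference was −1.50 ± 0.65 (SE). At an adjusted p of 0.05 a limma fit with array weights called 1, again Hsd11b2, where that fit called 0.933% of all probe sets. For 3 of the 15 the groups lay apart, where 21.3% of all probe sets did. These were the probe sets of Hsd11b2 and Per1 and 1 of Nr3c1. Since the genes were proposed from this comparison, nothing is read from these counts. The median difference of the 15 was −0.16, beside −0.11 for all probe sets tested.

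**Figure D3:**
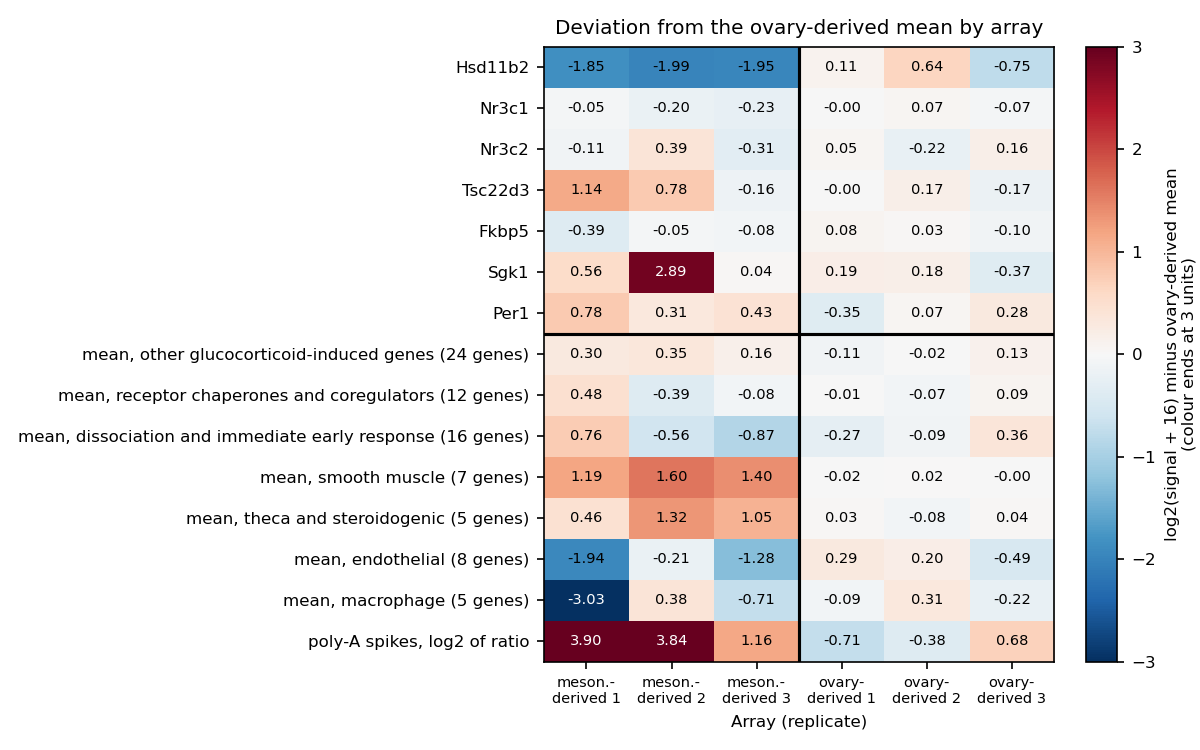
Deviation from the ovary-derived mean on each array (columns, with meson. for mesonephros), in log2 units, for the brightest tested probe set of 7 member genes (upper rows) and for the mean of each gene list and the poly-A spikes (lower rows). Hsd11b2 is at −1.85 to −1.99 on all 3 mesonephros-derived arrays, Sgk1 is at 2.89 on 1 of them, and Tsc22d3 is at 1.14 and 0.78 on the pair with the highest spikes.

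The immediate early and dissociation response was measured because it shares inducible genes such as Per1 and Sgk1 with stress of the tissue. The mean of its 16 markers stood at 0.76, −0.56 and −0.87 log2 units on mesonephros-derived arrays 1, 2 and 3 relative to the ovary-derived mean. The brightest probe sets of Tsc22d3, at 1.14, 0.78 and −0.16, and of Nr3c1, at −0.05, −0.20 and −0.23, had the same order of these arrays. Those of the other tested members had another order, with Sgk1 highest on array 2 at 2.89 and Per1 at 0.78, 0.31 and 0.43. How often this order occurs over all probe sets was not computed, so nothing is read from it. Of the 16 markers 11 were lower and 5 higher in mesonephros-derived cells. The groups did not overlap for Ier2 and Ier3, at −1.47 and −1.18, where 12.6% of all genes lay apart on the lower side. The widest differences were on the other side, at 1.59 for Hspa1a and 1.53 for Hspa1b, heat shock genes picked after their values were seen, whose groups overlapped. Smooth muscle markers, 7 of 7 higher, summed to 67033 to 84386 in mesonephros-derived and 28202 to 32007 in ovary-derived cells. Whether any of these lists contributes to the member values was not tested.

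Other glucocorticoid-induced genes lay on both sides of 0. Of 25 listed genes 24 were above the floor, 16 of them higher and 8 lower in mesonephros-derived cells, with a median difference of 0.30 beside −0.08 over all 11703 genes on their brightest probe sets. At an adjusted p of 0.05 in limma 0 were called (0.0256% of all genes). At an unadjusted p of 0.05 there were 5 higher and 1 lower, where 6.43% and 7.15% of all genes were. The same 6 genes were those whose groups did not overlap, where 9.56% of all genes lay apart on the higher side and 12.6% on the lower side. Among them, Zbtb16 was above the floor on average through mesonephros-derived arrays alone. Its groups lay apart by 88.5 against 87.8, both below the floor. Without mesonephros-derived replicate 2 the median was 0.20, and with the spike covariate it was 0.12.

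Zbtb16, a zinc finger repressor induced by glucocorticoids in many cell types, read 88.5, 1006 and 533 in mesonephros-derived replicates 1, 2 and 3, against 65.3, 87.8 and 65.3 in ovary-derived replicates. All ovary-derived arrays lay below the floor, and mesonephros-derived replicate 1 was below it too. On this probe set and with all arrays the level in mesonephros-derived cells was at least 3.37-fold higher. The fitted difference was 2.14 with all arrays and 1.44 without replicate 2, and the second tested Zbtb16 probe set had 1.35. Errfi1, a feedback inhibitor of the EGF receptor, read 4557, 2109 and 2290 in mesonephros-derived cells, against 892, 1193 and 1163 in ovary-derived cells. Its difference was 1.37 ± 0.31 (SE), and a second Errfi1 probe set had 1.38. Klf9, a Krüppel-like factor and a direct target of the receptor, read 8931, 10173 and 7359 in mesonephros-derived cells, against 4357, 4658 and 5080 in ovary-derived cells. Its difference was 0.90 ± 0.18, with its 6 other tested probe sets from −1.38 to 0.87.

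Cebpd, a C/EBP transcription factor that glucocorticoids and inflammatory signals both induce, lay on the other side of 0. It read 1965, 1175 and 1297 in mesonephros-derived cells, against 3466, 3762 and 4859 in ovary-derived cells, a difference of −1.46 ± 0.25, and its other tested probe set had −0.97. Every mesonephros-derived array lay below every ovary-derived one. The remaining genes without overlap, Glul (glutamine synthetase) at 0.81 ± 0.16 and Ddit4, an inhibitor of mTOR, at 0.88 ± 0.26, lay outside the naming rule and were picked after their values were seen. The metallothioneins Mt1 and Mt2, the phosphatase Dusp1 and Nfkbia, the inhibitor of NF-kB, all overlapped between the groups, at 0.36, 0.28, −0.15 and −0.25.

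**Figure D4:**
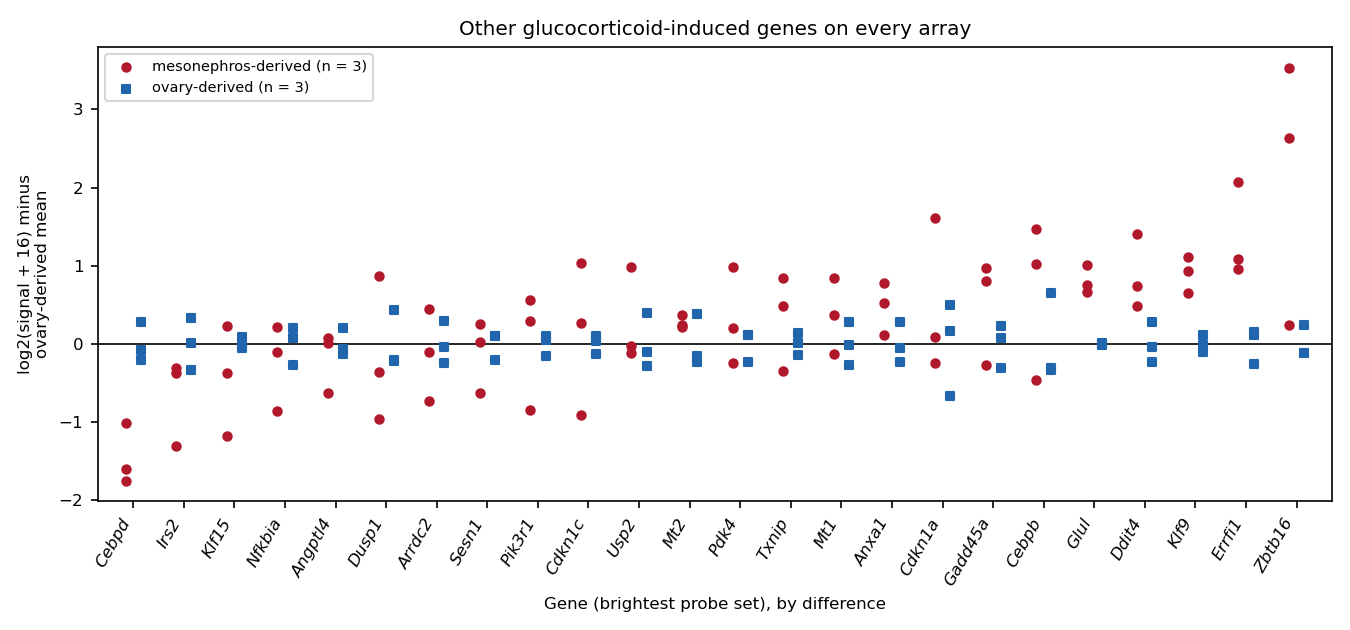
Each of the 24 tested genes of the glucocorticoid-induced list on every array, as log2(signal + 16) minus the gene's ovary-derived mean, ordered by the difference between the groups. Red circles are mesonephros-derived and blue squares ovary-derived arrays (3 each). Cebpd is the lowest at −1.46, and Glul, Ddit4, Klf9, Errfi1 and Zbtb16 end the row from 0.81 to 2.14 with no overlap.

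Chaperones and coregulators of the receptor varied more among mesonephros-derived arrays than between the groups. Of 17 listed genes 12 had a named probe set, all above the floor, 7 higher and 5 lower, with a median difference of 0.04. The list mean stood at 0.48, −0.39 and −0.08 on mesonephros-derived arrays 1, 2 and 3, with an SD of 0.08 among ovary-derived arrays. Hspa8, a constitutive chaperone that takes part in folding the receptor, read 40283, 31900 and 20300 in mesonephros-derived cells, against 14844, 14731 and 20071 in ovary-derived cells. The difference was 0.86 ± 0.25, with its 3 other tested probe sets from 0.42 to 0.61. It fell to 0.07 after quantile normalization and turned to −0.13 with the spike covariate. The order of the mesonephros-derived arrays for Hspa8 was that of the spikes. Hspa4 had 0.58 ± 0.19 with its 3 other probe sets from −0.58 to −0.24, and the acetyltransferase Ep300 had −0.56 ± 0.27. Hsp90aa1, the chaperone that holds the receptor ready for hormone, read 14286, 5730 and 4175 in mesonephros-derived cells, against 6555, 6178 and 7006 in ovary-derived cells, and overlapped.

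Targets and partners of the mineralocorticoid receptor were mostly dim. Of 8 listed genes 6 had a named probe set and 4 were above the floor, 1 higher and 3 lower. Nedd4l, the ubiquitin ligase that Sgk1 phosphorylates, read 158, 327 and 312 in mesonephros-derived cells, against 374, 462 and 448 in ovary-derived cells, without overlap. Its difference was −0.71 ± 0.38, and its 4 other tested probe sets ran from −1.52 to 0.56. The sodium channel subunits Scnn1a and Scnn1g were below the floor, and Scnn1b, at 0.45 ± 0.52, overlapped. Pgr, the progesterone receptor, which recognises the same response element as the receptors for glucocorticoids, read 144, 97.7 and 104 in mesonephros-derived cells, against 431, 516 and 388 in ovary-derived cells. Its difference was −1.82 ± 0.37, although a second probe set had −0.16.

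The pattern of Hsd11b2 over the 6 arrays was set beside that of every other named probe set above the floor, each centred on its own mean. The probe sets with the smallest root mean square difference, taking 1 per gene, were those of Cldn1 at 0.29 log2 units, Nudcd1 at 0.30, Robo4 at 0.30, Pgr at 0.32 and Sox11 at 0.34. They were picked for likeness to Hsd11b2 out of 22474 probe sets. Lower values in mesonephros-derived cells therefore follow from the choice and are no separate result. Cldn1, a tight junction protein, read 144, 161 and 182 in mesonephros-derived cells, against 725, 641 and 391 in ovary-derived cells. Robo4, an endothelial receptor, and Sox11 were below the floor on all mesonephros-derived arrays, at least 2.42-fold and at least 2.46-fold lower on these probe sets. Both were above the floor on average through the ovary-derived arrays alone. Other tested probe sets of these genes did not all go alike: the 1 other of Cldn1 had −0.66, the 2 others of Nudcd1 had −0.35 and 0.19, and the 5 others of Sox11 ran from −2.48 to −0.22.

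**Figure D5:**
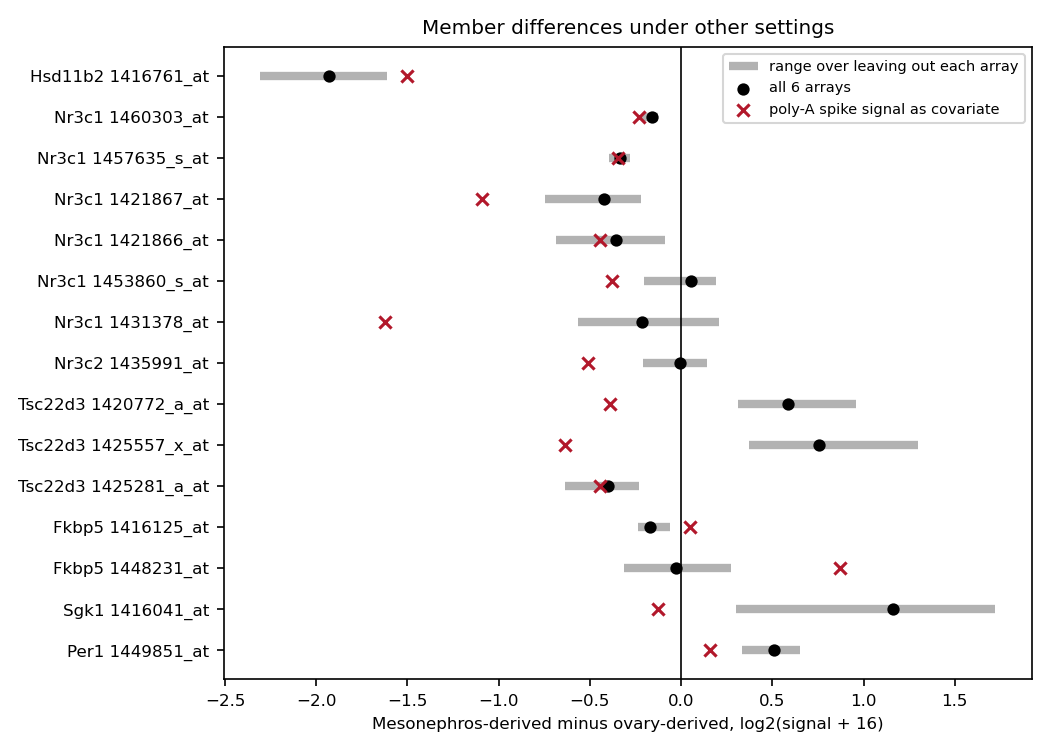
Difference of the 15 tested probe sets (mesonephros-derived minus ovary-derived, log2(signal + 16)) with all 6 arrays (black points), its range on leaving out each array in turn (grey bars) and its value adjusted for poly-A spike signal (red crosses). Hsd11b2 stays at −2.31 to −1.50, while Sgk1, the upper pair of Tsc22d3 probe sets, both of Fkbp5 and 1453860_s_at of Nr3c1 cross 0 with the covariate.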

How the data were processed

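The authors deposited linear intensities per probe set for 6 biotin-labelled 1-colour arrays. MAS5 is named in the submitters' processing notes, with no version or settings in the sources used here. Each array had a mean of 500 after trimming 2% at each end, so it had been scaled before deposit, and nothing further was normalized. Of 45101 probe sets, 64 controls were left out. Intensities were moved to log2(signal + 16), which understates fold changes of dim genes. Probe sets whose mean lay below the 40th percentile (a signal of 99.4) were not tested, leaving 27022. Where all 3 arrays of 1 group lay below that floor, a fold is given as a bound.

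Groups were compared by limma 3.58.1 in R 4.3.3 (lmFit, eBayes with trend), with Benjamini-Hochberg adjustment over all probe sets tested. The fit was checked on simulated data in which every array had the spread of the ovary-derived arrays. That check does not cover the larger spread among mesonephros-derived arrays. A gene on a list is represented by its brightest probe set. The 8 genes, the 5 pathway lists and the 10 marker lists were chosen with earlier results of these data known. From each pathway list up to 4 genes were named, those with the largest difference among genes whose groups did not overlap. Genes with no probe set of that single symbol were not analysed here. All 18 gene identifiers matched RefSeq (GRCm38.p6), used for names and promoter windows only. No 2 arrays were identical. The labels do not say whether replicates are separate animals, so the spread may be technical, and 3 arrays per group limit the precision. Deviations of same-numbered arrays of the groups correlated at −0.01 to 0.06. The main fit did not pair arrays by number, and with 3 arrays per group a weak pairing could not be seen.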

Additional observations from a re-analysis of the deposited data

Results flagged for a closer look

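The poly-A spike probe sets, controls outside the gene measurement, read above the ovary-derived arrays on every mesonephros-derived array. Their lowest median ratio to the ovary-derived mean among mesonephros-derived arrays was 2.24, against 1.60 for the highest ovary-derived array. With this signal as a covariate 13 of the 18 member differences moved by more than the spread between replicates.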

How the results depend on the processing

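No alternative turned the Hsd11b2 difference, which ran from −2.31 to −1.50 over the 19 alternatives and moved by less than 1 SD in each. The number of its probe sets past an adjusted p of 0.05 in limma, like that of all 8 genes, was 1 with array weights and 0 otherwise. Over all probe sets the count was 4, and 2 with a pseudocount of 1, 7 with a pseudocount of 64, 2 with no floor, 8 with a floor at the 60th percentile, 7 after quantile normalization, 2 after median centring, 1 with eBayes without trend, 252 with array weights (151 higher, 101 lower), 7 with the replicate number as a block and 0 with the spike covariate (651 at an unadjusted p of 0.05). Leaving out each array gave 0 to 104, with 104 lacking mesonephros-derived replicate 1, 2 lacking replicate 2, and 0 lacking replicate 3 or an ovary-derived array. The replicate block changed no member's call at the adjusted p, and at an unadjusted p of 0.05 it called 2 members against 1 without it. Hsd11b2 lost its unadjusted call with the spike covariate. Of 329 recomputed member differences 14 moved by over 1 SD, 13 of them with the spike covariate, which correlates with the groups. Of the 15 tested probe sets 7 kept their sign throughout. The median of the glucocorticoid-induced list, computed under other settings after seeing the data, lay between 0.12 and 0.37. Members near the floor (Hsd11b1, Nr3c2) are limited by their signal.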
